A study of Rattus norvegicus with 6 samples.

Results

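The 10 genes described here are 9 genes of the mucus-secreting goblet cell (Muc2, Tff3, Fcgbp, Clca1, Zg16, Spdef, Agr2, Atoh1 and Klk1) and Retnlb, a protein that goblet cells secrete. They were read by 13 of the 30367 probes of the array, and they are 10 of the 15168 rat genes that could be named. The genes were chosen because earlier work on these same arrays had shown differences between the strains for some of them, so their strain differences are given as a description, without a test.

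The colon transcriptome was compared between the S.LEW congenic strain (3 rats, C1 to C3) and the S strain (3 rats, S1 to S3), with 1 single-color oligonucleotide array per rat. The S rat is the Dahl salt-sensitive inbred strain. The congenic strain, S.LEW(10)x12x2x3x5, is a single line that carries a short segment of the Lewis (LEW) genome on the S background. All 6 rats were males of 30 weeks of age, ate a diet with 0.3% NaCl, and had received the colon carcinogen azoxymethane (AOM) at 15 mg/kg in 2 weekly injections from 6 weeks of age. No array of a rat without AOM was analysed here, so the comparison is of strains after the carcinogen and not of the carcinogen itself. The samples are described as colon tissue with induced tumors, and the share of tumor tissue in each sample is not given in the sources used here.

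Goblet cells store the gel-forming mucin Muc2 in granules and release it to build the mucus layer that keeps bacteria away from the colon epithelium. The transcription factor Atoh1 commits crypt cells to the secretory lineage, and Spdef drives the maturation of goblet cells. Retnlb, also known as resistin-like molecule beta, is secreted into the lumen, and its expression is known to be induced by bacterial colonization and by the cytokines of type 2 immunity.

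The values below are the log2 signals that the authors deposited after quantile normalization, which sets the arrays to a common distribution. A difference of 1 on this scale is a 2-fold change. The median intensity before normalization ranged from 214 to 594 between arrays, and the share of spots well above background from 73.8% to 87.6%. The array of S2 stood apart from those of its strain: its correlation over all probes was 0.967 to 0.976 with the arrays of the congenic strain and only 0.900 with S1 and 0.937 with S3. In bulk colon tissue, fewer cells of a type and less RNA per cell cannot be told apart. Each marker list below is summarized by its mean log2 signal on an array, relative to its mean over the 6 arrays.

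Of the 13 probes, 12 were well above background on all 6 arrays, so each of the 9 goblet cell genes was detected in every rat. Only the Retnlb probe was not. Called here means the cut-offs of the study, an unadjusted p under 0.05 from limma with at least a 2-fold change. On this rule 6 probes of 3 genes (Muc2, Spdef and Klk1) were higher in the S.LEW congenic strain, where 3.23% of all 23997 probes were called higher. Only Retnlb was lower, where 2.34% of all probes were called lower. In 9 probes of 6 genes every congenic rat lay above every S rat, as in 12.4% of all probes. In 1 probe every congenic rat lay below every S rat, as in 5.33% of all probes, and in the 3 probes of Tff3, Fcgbp and Clca1 the strains overlapped. In either direction, 5.58% of all probes were called. Since the genes were chosen with this contrast known, nothing is read from these shares. No probe of the array passed an adjusted p under 0.05 in limma, with a smallest adjusted p of 0.0843, while 3115 probes had an unadjusted p under 0.05.

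The promoters of 3 of the genes are shown because the genes differ in their pattern: Retnlb was lower in the congenic strain, Muc2 was higher, and Tff3 did not separate the strains. Each sequence runs 5′ to 3′ from 250 bases before to 50 bases after the transcript start, as RefSeq annotates it on the rat assembly GRCr8. They lie at chr11:65448270-65448569 on the minus strand (Retnlb), chr1:206228785-206229084 on the plus strand (Muc2) and chr20:9199284-9199583 on the minus strand (Tff3). Capitals mark an E-box with the letters CAGCTG, the type of site that Atoh1 and related factors can bind, or the letters TATAAA of the TATA box motif.
Retnlb: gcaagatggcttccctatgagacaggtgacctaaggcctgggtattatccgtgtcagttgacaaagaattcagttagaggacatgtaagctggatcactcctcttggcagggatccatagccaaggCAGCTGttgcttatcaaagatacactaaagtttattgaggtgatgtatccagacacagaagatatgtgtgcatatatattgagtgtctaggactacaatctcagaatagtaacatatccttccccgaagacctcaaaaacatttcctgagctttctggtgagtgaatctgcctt
Muc2: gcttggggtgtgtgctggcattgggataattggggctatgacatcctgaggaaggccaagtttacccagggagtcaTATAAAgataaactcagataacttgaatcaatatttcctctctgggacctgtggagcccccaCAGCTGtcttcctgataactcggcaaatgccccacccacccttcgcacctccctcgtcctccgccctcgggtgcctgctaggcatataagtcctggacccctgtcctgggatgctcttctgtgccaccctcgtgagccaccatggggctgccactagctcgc
Tff3: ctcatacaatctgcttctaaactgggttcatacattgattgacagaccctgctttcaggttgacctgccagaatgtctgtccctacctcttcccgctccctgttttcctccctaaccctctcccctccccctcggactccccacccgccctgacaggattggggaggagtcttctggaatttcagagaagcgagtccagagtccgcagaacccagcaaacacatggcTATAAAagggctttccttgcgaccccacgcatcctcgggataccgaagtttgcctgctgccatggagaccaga

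The E-box stood at bases -124 to -119 from the start in Retnlb and at -112 to -107 in Muc2, and it was found in 2 of the 9 promoters that the reference table held (all genes but Zg16). The same letters occurred in 15.1% of all 33469 promoters of this length. The letters TATAAA stood at -174 to -169 in Muc2 and at -23 to -18 in Tff3, and in 14.2% of all promoters. They were matched at any distance from the start, so a match need not be a working TATA box. Both strands were searched for every motif. A forkhead motif, TGTTTAC, was matched in Clca1 only, at -136 to -130 on the minus strand, and in 3.78% of all promoters. The core letters CCGGAT for Spdef, found in 6.64% of all promoters, and the STAT motif, TTC and GAA with any 4 bases between them, found in 7.28%, were in none of the 9 windows. These matches describe the letters and were not tested as sites.

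Retnlb was not well above background in any congenic rat and was well above it in every S rat. In C1, C2 and C3 the probe read 3.17, 3.44 and 3.95, none of them well above background, and in S1, S2 and S3 it read 6.91, 10.32 and 8.95. The intensities behind these values were 7.15, 7.10 and 10.98 for the congenic strain and 217, 875 and 690 for the S rats in the same order. The strains did not overlap, and S2 was the highest and S1 the lowest of the S rats. Because the congenic values hold only a bound, Retnlb is given as at least 12.8-fold lower in the S.LEW congenic strain. This sets the S mean of 8.73 ± 1.71 (SD, n = 3) on the log2 scale against a floor of 5.05. The floor averages, over the congenic arrays, the dimmest signal of any probe that was well above background: 4.50 for C1, 5.62 for C2 and 5.01 for C3, each above the array's own Retnlb signal. The bound rested on which S rats were used, with at least 7.40-fold without S2 and at least 24.1-fold without S1. It fell to 5.77-fold after normexp background correction of the scanner signals.

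The other resistin genes did not follow Retnlb. Retn, which encodes the adipose hormone resistin, had log2 signals of 6.36, 7.33 and 8.28 in C1, C2 and C3 and of 6.69, 6.10 and 4.90 in S1, S2 and S3. The strains overlapped, and the difference of 1.43 (standard error 0.62) was not called with all 6 rats, no block and no array weights. Retn was called higher with array weights and when C1 or S1 was left out. The 7 measured adipocyte markers stood between 0.13 and 0.89 in the congenic rats and between -0.74 and -0.31 in the S rats. Retn is itself among these markers, so their level is not independent of its values. The part of fat tissue in the values of Retn was not tested. Retnlg, the other measured gene of the family, differed by -0.20 (standard error 0.23).

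**Figure D1:**
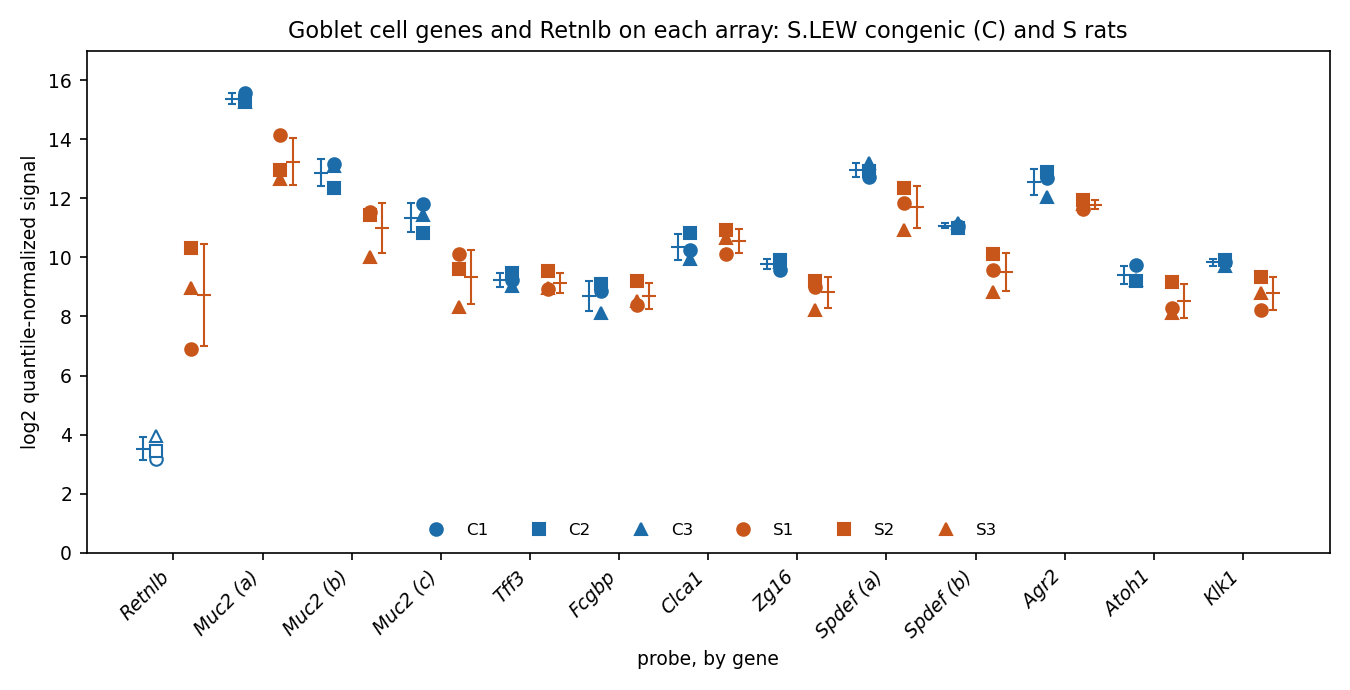
Log2 quantile-normalized signal (vertical axis) of the 13 probes of the 10 genes (horizontal axis) on each of the 6 arrays, with C1 to C3 for the S.LEW congenic and S1 to S3 for the S rats. Crosses with bars are strain means ± SD (n = 3), and open symbols are not well above background. Probes marked a, b and c are in the order in which the text gives them. The congenic points lie above the S points for Muc2, Zg16, Spdef, Agr2, Atoh1 and Klk1, overlap them for Tff3, Fcgbp and Clca1, and lie between 3.17 and 3.95 for Retnlb.

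Muc2 was higher in the S.LEW congenic strain at all of its 3 probes. The RefSeq table did not hold their accession. A_64_P200747 and A_64_P113287 take their name from the list of changed transcripts published with the study. A_64_P018633 was not matched to an entry named Muc2 and takes the name only because it carries the same accession. At the brightest, A_64_P018633, the log2 signal was 15.58, 15.29 and 15.27 in C1, C2 and C3 and 14.14, 12.95 and 12.65 in S1, S2 and S3. The congenic rats lay within 0.32 of each other, while the S rats spread over 1.49 with S1 the highest. The difference was 2.13 (standard error 0.40), or 4.39-fold, between a congenic mean of 15.38 ± 0.18 and an S mean of 13.25 ± 0.79 (SD, n = 3).

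At the second Muc2 probe, A_64_P200747, the values were 13.17, 12.36 and 13.10 in the congenic rats and 11.54, 11.43 and 10.02 in the S rats, with a difference of 1.88 (standard error 0.47). At the third, A_64_P113287, they were 11.79, 10.81 and 11.44 against 10.10, 9.62 and 8.32, with a difference of 2.004 (standard error 0.50). S1 was the highest and S3 the lowest of the S rats at each of the 3 Muc2 probes, and the strains did not overlap at any of them. Before normalization the intensity of S1 at the brightest probe was 32285, inside the congenic range of 31536 to 39527, on the array with the highest median intensity. In S2 and S3 the intensity was 5636 and 9039. With the scanner values scaled to the 75th percentile of each array, and no quantile normalization, the difference at this probe was 2.19. In fits that left out 1 rat, the Muc2 differences stayed between 1.39 and 2.58 over the 3 probes.

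The proteins that are secreted with Muc2 did not share one pattern. Tff3, a trefoil peptide that protects the mucosa, had log2 signals of 9.23, 9.47 and 9.02 in C1, C2 and C3 and of 8.92, 9.53 and 8.96 in S1, S2 and S3. Its difference was 0.11 (standard error 0.24), with S2 above every congenic rat. Fcgbp, a large protein cross-linked into the mucus, read 8.85, 9.11 and 8.13 in the congenic rats and 8.40, 9.20 and 8.51 in the S rats, a difference of -0.01 (standard error 0.34).

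Clca1, a metalloprotease that is abundant in colon mucus, read 10.26, 10.84 and 9.96 in the congenic rats and 10.13, 10.92 and 10.65 in the S rats. The difference was -0.21 (standard error 0.31). For Tff3, Fcgbp and Clca1 alike, S2 was the highest of the 6 rats, and each difference was within its standard error of 0. At 3 rats a strain, differences of this size could not be resolved, so equal levels are not shown. Without 1 rat the difference lay between -0.01 and 0.30 for Tff3, between -0.21 and 0.28 for Fcgbp and between -0.46 and -0.02 for Clca1.

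Zg16, a lectin of the mucus that binds Gram-positive bacteria, separated the strains by less than 2-fold. Its log2 signal was 9.57, 9.91 and 9.85 in C1, C2 and C3 and 9.01, 9.22 and 8.23 in S1, S2 and S3. Every congenic rat lay above every S rat, with S3 farthest down. The difference was 0.96 (standard error 0.29), and it was 0.67 without S3.

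Of the regulators, Spdef was higher in the congenic strain at both of its probes. At A_64_P104029 the log2 signal was 12.73, 12.93 and 13.21 in C1, C2 and C3 and 11.83, 12.35 and 10.94 in S1, S2 and S3, a difference of 1.25 (standard error 0.38). At A_64_P110544 it was 11.05, 10.99 and 11.17 against 9.57, 10.13 and 8.84, a difference of 1.56 (standard error 0.33). The strains did not overlap at either probe, and S2 was the closest of the S rats to the congenic level at both. The first probe lost its call without S3, where the difference was 0.87, without C3, where it was 1.12, and with the slide as a block, where it was 1.03 (standard error 0.57).

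Atoh1 read 9.75, 9.21 and 9.24 in the congenic rats and 8.29, 9.18 and 8.12 in the S rats. S2 came within 0.04 of the lowest congenic rat, and the other two S rats lay about 1 log2 unit below. The difference was 0.87 (standard error 0.33), with 1.20 without S2 and 0.67 without S3.

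Agr2, a protein disulfide isomerase that helps to fold Muc2, read 12.69, 12.90 and 12.06 in C1, C2 and C3 and 11.64, 11.93 and 11.79 in S1, S2 and S3, as the mean of 10 spots of 1 probe. The strains were 0.12 apart at the closest. The difference was 0.76 (standard error 0.26), and here the S rats varied less, with an SD of 0.14 against 0.44 in the congenic rats.

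Klk1, the tissue kallikrein that releases kinins from kininogen, read 9.85, 9.93 and 9.71 in the congenic rats and 8.21, 9.35 and 8.78 in the S rats. Each S rat lay below each congenic rat, S2 being the nearest. The difference of 1.05 (standard error 0.31) was just past 2-fold. It was not called without S1 (0.77), under normexp (0.91) or with the slide as a block (1.07, standard error 0.48). The Klk1-type genes of the rat are close copies of each other, so the value of Klk1 is uncertain as to which copies it reads. Of the other Klk1-type genes measured, Klk1b3 differed by 1.12, Klk1c10 by 1.03, Klk1c2 by 0.66, Klk1c8 by 0.57 and Klk1c12 by 0.15, and only Klk1b3 was called. The last 4 were named after their values were seen, and the strains overlapped for Klk1c2, Klk1c10 and Klk1c12.

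**Figure D2:**
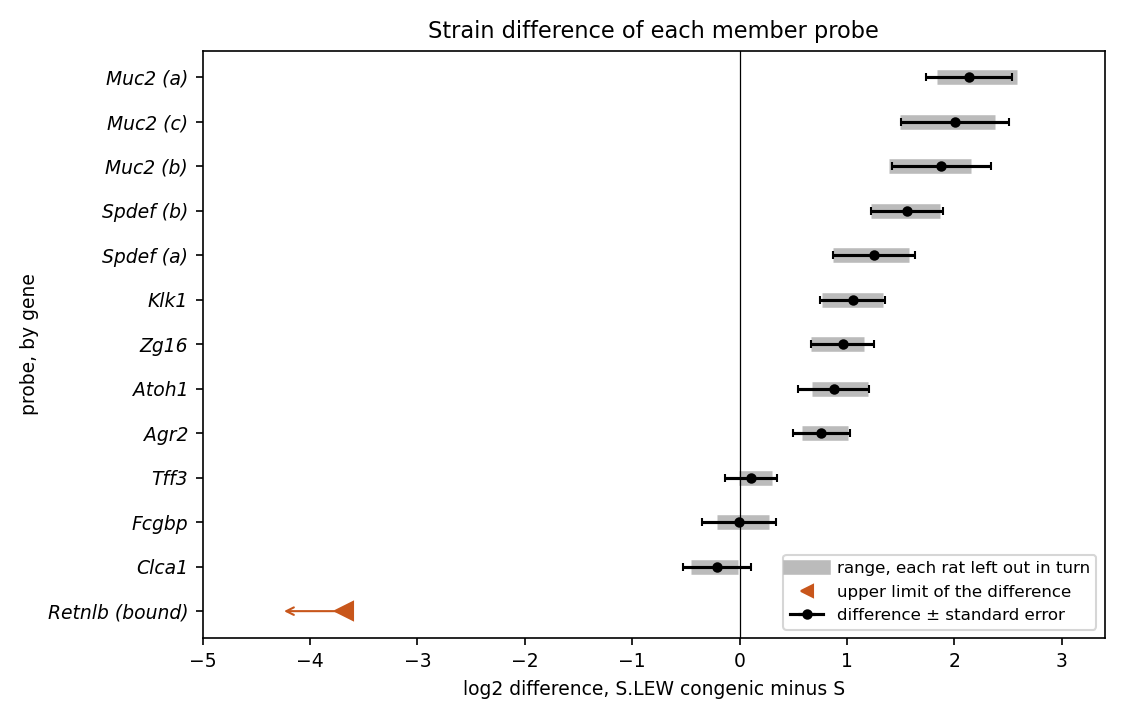
Log2 difference between strains, S.LEW congenic minus S (horizontal axis), for each probe (vertical axis, a to c as in the text), with its standard error (n = 3 a strain) as a black bar and the range over fits that leave out 1 rat as a grey bar. The Retnlb arrow starts at the upper limit of its difference, -3.68, and points to lower values. The Muc2 and Spdef bars lie to the right of 0, and the black bars of Tff3, Fcgbp and Clca1 cross it.

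The median difference of the 12 probes other than Retnlb, which include 3 of Muc2 and both of Spdef, was 1.01, beside 0.01 over all probes. Since the genes were chosen with this contrast known, nothing is read from this median. The S rats were ordered in a recurring way. S2 was the highest of the S rats in 9 of these 12 probes and S1 in the 3 probes of Muc2, while S3 was the lowest in 7 and S1 in 5. The range of the S rats was wider than that of the congenic rats in 9 of the 12. S2 therefore read nearest to the congenic level for Spdef, Atoh1 and Klk1, but not for Muc2, and it had the highest Retnlb signal. Without S2, 8 of the probes were called higher in place of 6, while over all probes 2397 were called higher in place of 776.

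Slides differed between the strains, since C1 and all S rats were on one slide and C2 and C3 on another. Within the shared slide, where C1 is the sole congenic rat, the difference from the S rats was 2.17 to 2.45 over the probes of Muc2, 1.03 and 1.54 for those of Spdef, 1.23 for Atoh1, 1.07 for Klk1, 0.90 for Agr2 and 0.75 for Zg16. It was 0.10 for Tff3, 0.15 for Fcgbp and -0.31 for Clca1. In 9 of the 12 probes C1 lay above all S rats. The share of all probes in which C1 did so was not computed, so nothing is read from this count. With the slide as a block over all 6 rats, 5 probes were called higher: those of Muc2, the second of Spdef, and Atoh1, which was not called without the block. The calls of Klk1 and of the first Spdef probe were lost. Over all 23997 probes, 551 were called higher with the block and 776 without it. Retnlb was at least 18.7-fold lower in C1.

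Muc2 was next set against other goblet cell genes of the same rat. Relative to the mean of Tff3, Fcgbp and Clca1, with all genes centred on their mean over the arrays, the brightest Muc2 probe stood at 1.27, 0.62 and 1.36 in C1, C2 and C3 and at 0.13, -1.80 and -1.59 in S1, S2 and S3. The strains did not overlap, and the mean difference was 2.17. On the same scale Spdef and Atoh1 together stood at 0.60, 0.07 and 0.99 in the congenic rats and at -0.29, -0.32 and -1.05 in the S rats, 1.1 apart. The 3 genes of this reference were picked after their values were seen, because they did not separate the strains.

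The level of the epithelium moved with these genes. All 12 epithelial markers were measured, 11 were higher in the congenic mean and 1 was called. Their mean stood between -0.03 and 0.48 in the congenic rats and between -0.56 and -0.06 in the S rats, a difference of 0.60. The bright keratin Krt19 differed by 0.94 (standard error 0.30) and the junction protein Cldn3 by 0.57 (standard error 0.22). Subtracting this epithelial mean on each array, a step added after the values were seen, left the brightest Muc2 probe 1.53 higher in the congenic strain without overlap, and the second Spdef probe 0.96 higher without overlap. The other 2 Muc2 probes were 1.28 and 1.40 higher and the first Spdef probe 0.65 higher, with overlap. Zg16, Agr2, Atoh1 and Klk1 were 0.16 to 0.45 higher, with overlap for each of them.

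The same subtraction takes 0.60 from every strain difference, because the epithelial mean itself was higher by this much in the congenic strain. A gene with no strain difference in bulk signal is therefore bound to become lower in the congenic strain. The differences of Tff3, Fcgbp and Clca1 became -0.50, -0.61 and -0.82, and every congenic rat lay below every S rat for each of these genes. Tff3, for example, stood at -0.44, -0.17 and -0.14 in C1, C2 and C3 and at 0.28, 0.40 and 0.06 in S1, S2 and S3. Whether these genes overlapped or separated thus depended on the scale, as bulk signal or per epithelial signal. Of the 12 probes, 2 lay above, 3 below and 7 overlapped. The share of all probes that did so on this scale was not computed, so nothing is read from these counts.

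**Figure D3:**
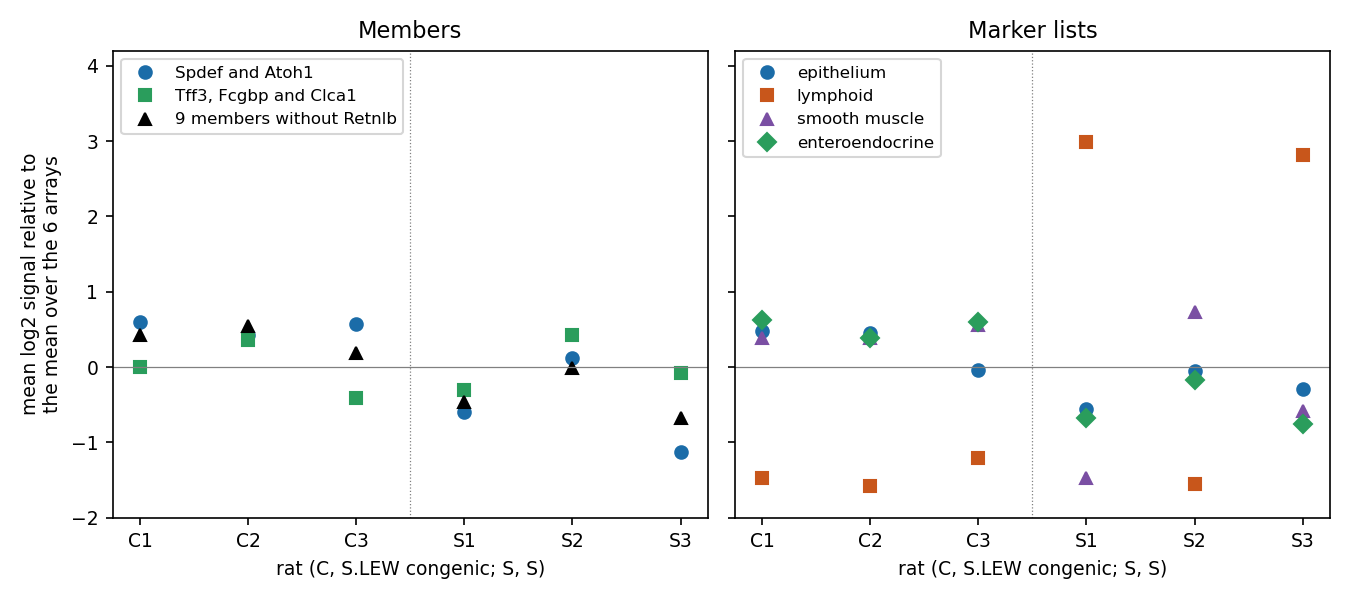
Mean log2 signal relative to the mean over the 6 arrays (vertical axis) for each rat (horizontal axis, the dotted line divides the strains), for groups of the goblet cell genes on the left and for marker lists of the colon on the right. Spdef with Atoh1 runs from 0.42 to 0.59 in the congenic rats and from -1.12 to 0.12 in the S rats, and lymphoid markers reach 3.00 in S1 and 2.81 in S3 but lie at -1.55 in S2.

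Markers of other tissue layers differed among the S rats. The 10 measured lymphoid markers of 15 stood between -1.57 and -1.20 in the congenic rats, while S1 had 3.00, S3 had 2.81 and S2 had -1.55, and 6 of the 10 were called lower in the congenic strain. Smooth muscle markers, 9 of 10 measured, stood between 0.38 and 0.55 in the congenic strain, and S1, S2 and S3 had -1.47, 0.73 and -0.59, with 1 called higher. S1 and S3, the rats with high lymphoid and low muscle levels, held the lowest values of Spdef, Atoh1, Zg16, Agr2 and Klk1. They also held the lowest values of Tff3, where the strains overlapped. Muc2, Retnlb, Fcgbp and Clca1 did not follow this order. S2, at the congenic level for lymphoid markers, read 12.95 for Muc2 and 10.32 for Retnlb, and C3 was the lowest rat for Fcgbp and Clca1. The part of these tissue layers in the goblet cell values was not tested.

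The remaining marker lists gave the following levels. Enteroendocrine markers, 10 of 12 measured, stood between 0.39 and 0.63 in the congenic rats and between -0.76 and -0.18 in the S rats, with 5 called higher. Absorptive colonocyte markers, 11 of 13 measured, overlapped at -0.04 to 0.48 and -0.36 to 0.02, with 2 called higher and 1 lower. Deep crypt and stem cell markers, 7 of 9 measured, stood between 0.11 and 0.25 in the congenic rats and between -0.79 and 0.63 in the S rats, with 1 called higher. The brightest of them, Lyz2, read 15.66 in S1 and 15.20 in S3 but 11.62 in S2, so it was high where the lymphoid markers were. The next brightest, Smoc2, was instead lowest in S1 and S3. The part of Lyz2 in the level of this list was not tested. Striated muscle markers, 9 of 11 measured, had 1.58 for S2 and 0.66 for S3, against -0.80 to -0.47 for the congenic strain and -0.44 for S1, with 3 called lower.

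Genes of the wider goblet cell program were then counted from 6 lists. The lists named 174 genes besides the 10, and 106 had a tested probe, with the brightest probe taken for each gene. Of these, 13 were called higher and 4 lower, where 3.8% of all 12419 genes were called higher and 2.62% lower. Their median difference was 0.21, beside 0.03 over all genes. In limma with all rats and no array weights, none passed an adjusted p under 0.05 and 25 had an unadjusted p under 0.05. The counts moved with single rats, with 21 higher and 8 lower without S2, where 2397 of all probes were called higher and 1725 lower. They were 9 higher and 2 lower without S3, 7 lower without S1, 2 lower without C1 or without C2 and 1 lower without C3. Over all probes, leaving out 1 rat gave 477 to 2397 called higher and 192 to 1725 called lower. Nothing is therefore read from list counts without 1 rat, here or below. With the slide as a block they were 8 higher and 2 lower, and within the shared slide 5 higher and 1 lower. Of the called genes named below, Dmbt1, Nlrp6, Agr3 and Il33 kept their call under every alternative that was run. Creb3l4, Tff2, Slc12a2, Serpina3n, Il13ra1, Ccl11 and Il2rg lost it with the slide as a block, and Foxa3 and Klk1b3 within the shared slide.

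Of 24 secretory lineage regulators, 3 were called higher and none lower, with a median of 0.26. Foxa3, a forkhead factor of goblet cells, read 8.62, 8.60 and 8.43 in C1, C2 and C3 and 7.31, 7.94 and 6.74 in S1, S2 and S3, a difference of 1.22 (standard error 0.32) that fell to 0.92 without S3. Creb3l4, a membrane-bound transcription factor of the endoplasmic reticulum, differed by 1.08 (standard error 0.36) and was not called without any one of C1, C3, S1 and S3. Neurod1, an enteroendocrine factor named here after its values were seen, differed by 1.04 (standard error 0.26) at a dim probe. Without S2, where 2397 of all probes were called higher and 1725 lower, 4 regulators were called higher and 2 lower. Without S3, where 477 of all probes were called higher, no regulator was called higher.

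Of 13 other mucins and mucus proteins, 2 were called higher and none lower, and the median was -0.32. Dmbt1, a scavenger receptor glycoprotein of mucosal surfaces, read 11.97, 11.56 and 11.54 in the congenic rats and 9.83, 8.57 and 8.09 in the S rats. The difference was 2.86 (standard error 0.45), with no overlap and with S1 the highest of the S rats. Tff2, a trefoil peptide of the stomach, was well above background on all 3 congenic arrays but on 1 of 3 S arrays. Its fitted difference of 1.84 (standard error 0.50) is against values near background and was 0.69 under normexp, where it was not called, so no fold is given.

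The third trefoil gene and the lectin Itln1 ran the other way in part of the S rats. Tff1 read 6.34, 6.08 and 6.30 in the congenic rats, 5.99 in S1, 9.85 in S2 and 9.25 in S3. Itln1 read 11.75, 12.09 and 11.92 in the congenic rats, 11.92 in S1, 14.50 in S2 and 13.43 in S3. Neither was called in the limma fit with all rats, no block and no array weights. The list had 4 genes called lower without S1. It had 3 called lower with array weights, where 1649 of all probes were called lower. These genes were named after their values were seen. Retnlb too was higher in S2 and S3 than in S1.

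Of 36 genes of folding and granule release, 4 were called higher and none lower, with a median of 0.28. Nlrp6, an inflammasome sensor linked to the release of goblet granules, read 11.88, 11.78 and 11.42 in C1, C2 and C3 and 9.83, 9.88 and 9.42 in S1, S2 and S3. The S rats lay close together here, S2 included, and the difference was 1.98 (standard error 0.22). Agr3, a paralog of Agr2, read 11.46, 11.55 and 10.70 against 9.28, 10.12 and 9.54, a difference of 1.59 (standard error 0.33). The tetraspanin Tspan8 differed by 1.07 (standard error 0.20, and 0.95 without C1). The chloride cotransporter Slc12a2 differed by 1.05 (standard error 0.28, and 0.90 without S3). Without S2, where 2397 of all probes were called higher, the list had 8 genes called higher.

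Of 11 other genes of the kallikrein system, 2 were called higher and 1 lower, with a median of 0.38. Klk8, a kallikrein outside the Klk1-type copies, read 9.49, 8.88 and 9.29 in the congenic rats and 8.40, 7.94 and 7.94 in the S rats, a difference of 1.13 (standard error 0.24, and 0.99 without C1). Klk1b3 differed by 1.12 (standard error 0.30). Serpina3n, a serine protease inhibitor, differed by -1.76 (standard error 0.54), since the S rats read 9.97, 8.02 and 9.15 against 6.72 to 7.84, and it was not called without C3. Without S1 only 1 gene of this list was called higher.

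**Figure D4:**
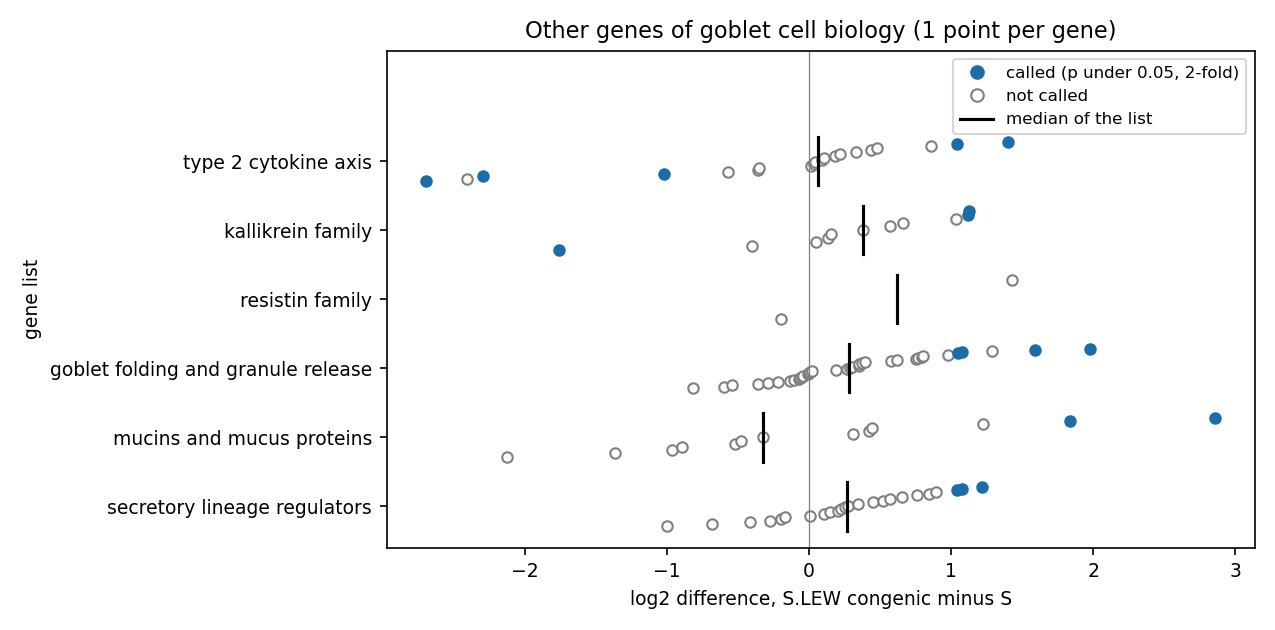
Log2 difference, S.LEW congenic minus S (horizontal axis), of each gene of the 6 lists (vertical axis, 1 point per gene at its brightest probe, spread vertically for legibility). Filled points were called, and the upright line is the median of the list. Medians run from -0.32 for mucins and mucus proteins to 0.62 for the 2 genes of the resistin family, with 13 filled points on the right and 4 on the left.

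Of 20 genes of the type 2 cytokine axis, 2 were called higher and 3 lower, with a median of 0.07. Il33, an alarmin cytokine of epithelial and stromal cells, read 9.85, 9.41 and 9.56 in C1, C2 and C3 and 11.59, 12.44 and 11.68 in S1, S2 and S3. All S rats lay above all congenic rats, S2 at the top, and the difference was -2.30 (standard error 0.28). Its receptor Il1rl1 did not separate the strains, with a difference of 0.44 (standard error 0.51). Il13ra1, a receptor chain for interleukin 13, was 1.04 higher (standard error 0.28) and the eosinophil chemokine Ccl11 was 1.40 higher (standard error 0.42).

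Il2rg, the common gamma chain of several lymphocyte cytokine receptors, differed by -2.69 (standard error 1.06), with 14.02 in S1 and 13.51 in S3 but 9.90 in S2, inside the congenic range. The kinase Jak1 differed by -1.02 (standard error 0.36). It and Il1rl1 were named after their values were seen. S1 and S3 also had the high lymphoid markers, whose part in Il2rg was not tested. Without S2, where 1725 of all probes were called lower and 2397 higher, 4 genes of this list were called lower and 3 higher. Without any one of the other 5 rats 1 gene was called lower, and without S1, S3 or C3 1 was called higher.

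The genes whose log2 signals ran most like those of the brightest Muc2 probe over the 6 arrays, of 12409 ranked, were Dmbt1 (Pearson r of 0.998), Lmx1a (0.997), Ugt8 (0.994), Ghrl (0.994) and Pparg (0.994). Pparg, for example, read 11.32, 11.18 and 11.30 in the congenic rats and 10.31, 9.55 and 9.06 in the S rats, in the same order of S rats as Muc2. The genes most like Retnlb were Acly (0.982), B3gnt7 (0.977), Slc30a3 (0.973), Nxpe4 (0.971) and Il33 (0.966). B3gnt7 read 6.49, 7.65 and 6.93 in the congenic rats, 9.20 in S1, 13.71 in S2 and 12.68 in S3. These correlations describe 6 arrays that share a strain contrast, and for Retnlb the 3 congenic values are not well above background.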

How the data were processed

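Total RNA from the colon of each of 6 rats was labeled with Cy3 and hybridized to 1 Agilent array. The authors extracted spot intensities with Agilent Feature Extraction 11.0.1.1, and the deposited scanner files hold a background-corrected intensity for each of 42877 spots that are not controls. In GeneSpring the authors applied quantile normalization, and the deposited log2 table holds 23997 probes. These log2 values were used for all levels and differences. The genome build of the probe design is not given in the sources used here. The scanner files gave the flags for signal well above background, the slide, and the intensities for the alternatives.

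Of 30367 probes, 18005 carried an accession of a RefSeq gene on GRCr8 and took its name, which gave 15168 genes. The accession of the Muc2 probes had no match. Of these probes, 2 (A_64_P200747 and A_64_P113287) were identified by their values. These equal, within a relative 1e-05, those of entries that the study's supplementary list of called transcripts names Muc2. The third and brightest, A_64_P018633, was named only because it carries the same accession. The values in that list, and its comparisons, were not otherwise used. In gene lists, each gene was read by its brightest probe on average.

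Strains were compared over all probes in R 4.3.3 by limma 3.58.1 (two-sided, functions lmFit and eBayes, without covariates) with Benjamini-Hochberg adjustment. A probe was called where its unadjusted p was under 0.05 and its change at least 2-fold. The standard errors come from this fit. The members and lists were chosen with earlier results of these data known. The genes named are the 10 members, up to 4 called genes of each of 6 lists with the largest difference and well above background on all arrays of the higher strain, up to 2 bright markers of a list, and the 5 genes most correlated with Muc2 and with Retnlb. Marker lists covered goblet, absorptive, enteroendocrine, epithelial, deep crypt, lymphoid, smooth muscle, striated muscle and adipocyte genes. The 8 goblet markers are members, and stood between 0.16 and 0.53 in the congenic rats and between -0.70 and -0.02 in the S rats.

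The alternatives were quantile or 75th percentile scaling of the scanner intensities, detection on all 6 arrays or no filter, array weights, the methods' t-test, a block for the slide or for the replicate number, the shared slide alone, a floor at the 1st percentile for the Retnlb bound, and leaving out each rat. Normexp correction (offset 50) of the median signal and the subtraction of epithelial markers were added after the data were seen. Promoters are those of RefSeq on GRCr8. Plots were drawn with matplotlib 3.10.9. The precision is limited by 3 rats a strain.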

Additional observations from a re-analysis of the deposited data

How the results depend on the processing

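Among the 10 genes and the list genes named by the rule, which were followed through the alternatives, no called difference changed its direction. Over all probes, the number called higher and lower was 776 and 562 in limma with all rats and the deposited values, 515 and 178 with the methods' t-test, 2000 and 1649 with array weights (weight 0.16 for S2), and 443 and 187 within the shared slide. It was 358 higher under normexp, 342 lower with a filter on all 6 arrays and 227 lower with the slide as a block. The array weights were 4.90 for S3, 0.74 for S1 and 0.93 to 1.57 for the congenic rats, so S3 counted most on the S side. In limma with these weights 8549 probes passed an adjusted p under 0.05. Leaving out 1 rat gave 477 to 2397 higher and 192 to 1725 lower, the highest without S2, where 5553 probes also passed an adjusted p under 0.05, and the lowest without S3. With 75th percentile scaling 47.7% of the called probes were higher, against 58.0% with the deposited values, and the median difference of all probes was then close to 0. The probes of the 10 genes called higher numbered 6 with all rats and the deposited values, 3 within the shared slide and 5 to 8 without 1 rat. The filter on all 6 arrays removed Retnlb, leaving 0 called lower. Array weights gave a difference of 1.43 for Zg16 and of 1.85 and 2.08 for the probes of Spdef. The Retnlb bound ranged from 7.40 to 24.1 without 1 rat, and was 10.8 with the floor at the 1st percentile. Genes of the other lists called higher and lower numbered 13 and 4 in the report, 23 and 10 with array weights, 8 and 2 with the slide as a block, 5 and 1 within the shared slide, 9 to 21 and 1 to 8 without 1 rat, and 1 lower with the methods' t-test. The cause of these shifts was not tested. The planned normexp correction on the mean signal was not run, as the files analysed here hold the median signal.

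The study housed an S rat with a congenic rat in each cage, and the labels do not say which rats shared a cage. Replicate numbers were therefore not taken as pairs. Around their strain means, rats with the same number correlated at -0.02, -0.13 and -0.06, which cannot show whether they shared a cage. With the replicate number as a block, 794 probes were called higher and 744 lower, the members kept 6 probes called higher, and the other lists had 15 called higher and 6 lower.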
